A study of Mus musculus with 29 samples.

Results

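The number of copies of each mouse autosome was read from the depth of reduced representation bisulfite sequencing (RRBS), a method that reads CpG sites near the cuts of a restriction enzyme and so samples mainly CpG-dense DNA. The members were the 19 autosomes, of 21 chromosomes with CpGs in the deposited files. For each of 29 libraries, reads were summed per autosome over 893266 CpGs that had at least 1 read in every library and at most 1000 in any, and divided by the autosomal sum to give a share of reads.

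The comparisons covered these groups. The single libraries were male Mek1/2 double-knockout induced pluripotent stem cells (MEK DKO, derived by Cre deletion of floxed Mek1 in picked clonal Mek1fl/fl;Mek2-/- cells, and kept on feeder fibroblasts in serum and LIF, S/L) and embryonic stem cells (ESCs) of line J-34 given PD or CHIR for 6 passages. The other ESC libraries came from 3 male lines (named J-34, J-35, J-37) that entered their medium at passage 4. Collected at passage 10 (p10) were 2i/L with 3 libraries, a2i/L (J-34) and PKCi/L (J-35) with 1 each, and S/L with 3. Collected at passage 20 (p20) were 2i/L with 3 libraries, PKCi/L and a2i/L with 2 each (J-34 and J-35), and S/L with 3. Cells returned to S/L after 16 passages in 2i/L were collected 3 passages later (p23, 3 libraries) or 10 passages later (p30, 2 libraries). Keratinocytes labelled 2i/L (2 libraries, male) and Wild-type (1 library, female) were used to read the X chromosome. The labels give no composition of a2i/L or PKCi/L. One p30 library is titled J-35 but described in its other labels as J-34, and is called here the p30 library titled J-35.

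Mouse ESCs in culture are known to gain whole chromosomes, most often chromosomes 8 and 11, and cells with a growth advantage then take over a culture. The medium 2i/L combines inhibitors of Mek1/2 and Gsk3 with LIF and holds ESCs in a naive state. Chromosome 6 carries Nanog, Dppa3 and Gdf3, genes of the naive pluripotency network. An extra copy of a chromosome in all cells raises its reads by log2(3/2), or 0.58, over an autosome with 2 copies, and a gain in some of the cells by less, so that a mixed culture and a smaller change in every cell cannot be told apart.

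Libraries were compared within 3 sets of matched coverage: set 1 (11 libraries: p10, PD, CHIR, MEK DKO), set 2 (9 libraries: 2i/L p20, p23, S/L p20) and set 3 (6 libraries: p30, PKCi/L p20, a2i/L p20). The fewest counted autosomal reads were 5702559 (Wild-type keratinocytes), and the most were 15524798 (p23 of J-37). From these counts, the counting error of a chromosome's log2 share was at most 0.0035. A read over several CpGs was counted at each of them, so the true counting error is larger. The error given is far below the log2 ratio of 0.2 asked of a call. How far depth limits smaller shifts was not tested. Log2 ratios are given on a pair of scales. The first is the log2 ratio of a share to the median share of the set, and a chromosome of a library was called when this ratio was at least 0.2 in size and the part on either side of its middle CpG moved the same way by at least 0.1. The second, used for copies, takes the mean of the S/L libraries of the set as the base (in set 3, which has no S/L library, the a2i/L p20 mean) and subtracts the median over the 19 autosomes of the library, so that the median autosome stands at 2 copies. The libraries that form a base average about 2 copies by construction, so a change that they share does not show on this scale. The scale was added after the data were seen.

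Chromosomes 6 and 8 took a higher share of reads in all 3 ESC lines after 16 passages in 2i/L than in the S/L cultures of the same passage. Among the S/L p20 libraries, that of J-35 was above the other 2 on chromosome 8. The copies of the S/L p20 libraries average about 2 by construction, since their mean is the base. Chromosome 8 took 8.36%, 8.44% and 8.45% of the reads in 2i/L p20 of J-34, J-35 and J-37, against 6.00%, 6.50% and 6.01% in S/L p20 of the same lines. These shares gave 2.85, 2.85 and 2.88 copies in 2i/L p20, against 1.94, 2.11 and 1.95 copies in S/L p20. Chromosome 6 took 6.03%, 6.03% and 6.55% of the reads in 2i/L p20, against 4.55%, 4.57% and 4.55% in S/L p20. This gave 2.79, 2.76 and 3.02 copies in 2i/L p20, against 2.00, 2.01 and 2.00 copies in S/L p20. The 3 libraries of each group lay apart from the 3 of the other on both chromosomes. They also lay apart on every other autosome except chromosomes 3 and 19, with lower shares in 2i/L p20. The log2 share was 0.44 ± 0.03 higher for chromosome 6 (SE, limma adjusted p = 3.78e-09) and 0.45 ± 0.02 higher for chromosome 8 (SE, limma adjusted p = 1.17e-10). In this comparison 3 of 19 autosomes (15.8%) were called, and the third, chromosome 17, was lower by a log2 difference of -0.10 ± 0.01 (SE, limma adjusted p = 5.42e-09). Shares sum to a fixed total, so a gain of 2 chromosomes lowers the others. After the median autosome of each library was subtracted, chromosomes 6 and 8 were the 2 called and chromosome 17 was not.

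**Figure D1:**
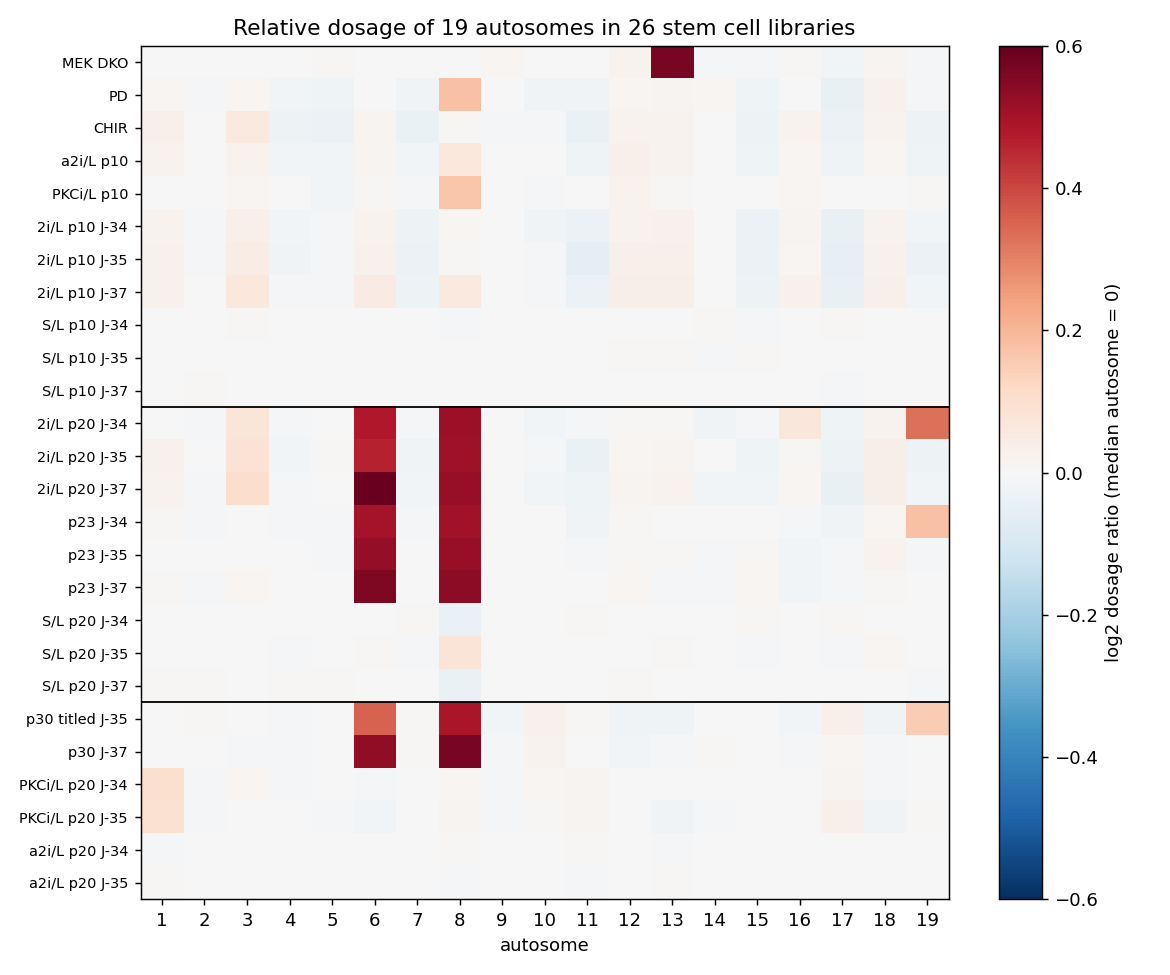
Log2 dosage ratio (colour) of the 19 autosomes (columns) in 26 stem cell libraries (rows, in the 3 sets divided by black lines), each against the S/L libraries of its set (a2i/L p20 in the third) with the median autosome at 0. Chromosomes 6 and 8 stand out in the 2i/L p20, p23 and p30 libraries, chromosome 13 in MEK DKO, and chromosome 19 in 2i/L p20 of J-34.

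Neither chromosome was called at p10. Chromosome 8 gave 2.02, 2.01 and 2.08 copies in 2i/L p10 of J-34, J-35 and J-37, against 1.99, 2.00 and 2.00 copies in S/L p10. Chromosome 6 gave 2.03, 2.03 and 2.07 copies in 2i/L p10, against 2.00, 2.00 and 2.00 copies in S/L p10. The highest 2i/L p10 value on both chromosomes was that of J-37. Of 19 autosomes, 0 (0%) were called between 2i/L p10 and S/L p10 by limma, while 11 had an unadjusted p under 0.05 without reaching a log2 difference of 0.1. By limma adjusted p under 0.05 alone, 11 passed as well, so only the size limit kept them from a call. The difference between the 2i/L effect at p20 and that at p10, a test added after the data were seen, was 0.41 ± 0.05 for chromosome 6 (SE, limma adjusted p = 9.96e-07) and 0.42 ± 0.03 for chromosome 8 (SE, limma adjusted p = 2.71e-08). With the same size limit of 0.1 as for the other comparisons, these were the 2 of 19 autosomes (10.5%) called. By adjusted p alone, 18 of 19 autosomes passed, since the shares of the others fall as those of chromosomes 6 and 8 rise. After the median autosome was subtracted, 6 of 19 passed by adjusted p alone (chromosomes 3, 6, 7, 8, 12 and 15), and chromosomes 6 and 8 were again the 2 called.

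Cells returned to S/L also had both chromosomes above the S/L cultures. At p23 chromosome 8 gave 2.84, 2.87 and 2.91 copies in J-34, J-35 and J-37, and chromosome 6 gave 2.83, 2.88 and 2.95 copies. Against S/L p20, 2 of 19 autosomes (10.5%) were called in p23, with log2 shares 0.46 ± 0.03 higher for chromosome 6 (SE, limma adjusted p = 2.88e-09) and 0.46 ± 0.02 higher for chromosome 8 (SE, limma adjusted p = 1.81e-10). Between p23 and 2i/L p20, which were compared directly, 0 of 19 autosomes (0%) were called by limma, with 8 at an unadjusted p under 0.05. By limma adjusted p under 0.05 alone, 7 passed, all under the size asked of a call. The differences were 0.02 ± 0.03 for chromosome 6 (SE, limma adjusted p = 0.728) and 0.01 ± 0.02 for chromosome 8 (SE, limma adjusted p = 0.808). With the cell line as a replicate block, the limma adjusted p was 0.527 for chromosome 6 and 0.791 for chromosome 8. That fit has line effects common to all groups, so it does not pair p23 with 2i/L p20 of the same line. A p above the threshold does not show that the groups were equal.

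At p30, chromosome 8 gave 2.81 copies in the library titled J-35 and 2.96 in J-37, against 2.01 and 1.99 copies in a2i/L p20 of J-34 and J-35. Chromosome 6 gave 2.56 copies in the p30 library titled J-35 and 2.9 in J-37, against 2.00 and 2.00 copies in a2i/L p20. The a2i/L p20 copies average about 2 by construction, since their mean is the base. With the S/L p10 libraries as the base, chromosome 8 gave 1.97 and 1.95 copies in a2i/L p20, and 2.75 and 2.91 in p30. On that base chromosome 6 gave 2.03 and 2.03 copies in a2i/L p20, and 2.60 and 2.93 in p30. Against a2i/L p20, 2 of 19 autosomes (10.5%) were called, with log2 shares 0.38 ± 0.04 higher for chromosome 6 (SE, limma adjusted p = 3.67e-07) and 0.47 ± 0.03 higher for chromosome 8 (SE, limma adjusted p = 1.37e-09). Against PKCi/L p20, 3 of 19 (15.8%) were called. Chromosome 6 was 0.40 ± 0.04 higher in p30 (SE, limma adjusted p = 2.26e-07) and chromosome 8 was 0.46 ± 0.03 higher (SE, limma adjusted p = 1.73e-09). Chromosome 1 was lower in p30 by a log2 difference of -0.15 ± 0.01 (SE, limma adjusted p = 1.73e-09), and was not called once the median autosome was subtracted. Its mean was 2.00 copies in p30 and 2.14 in PKCi/L p20, where part of the chromosome was gained (below). Set 3 has no S/L library and p30 no S/L culture of equal passage, so the age of the culture and its time in 2i/L cannot be told apart there.

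**Figure D2:**
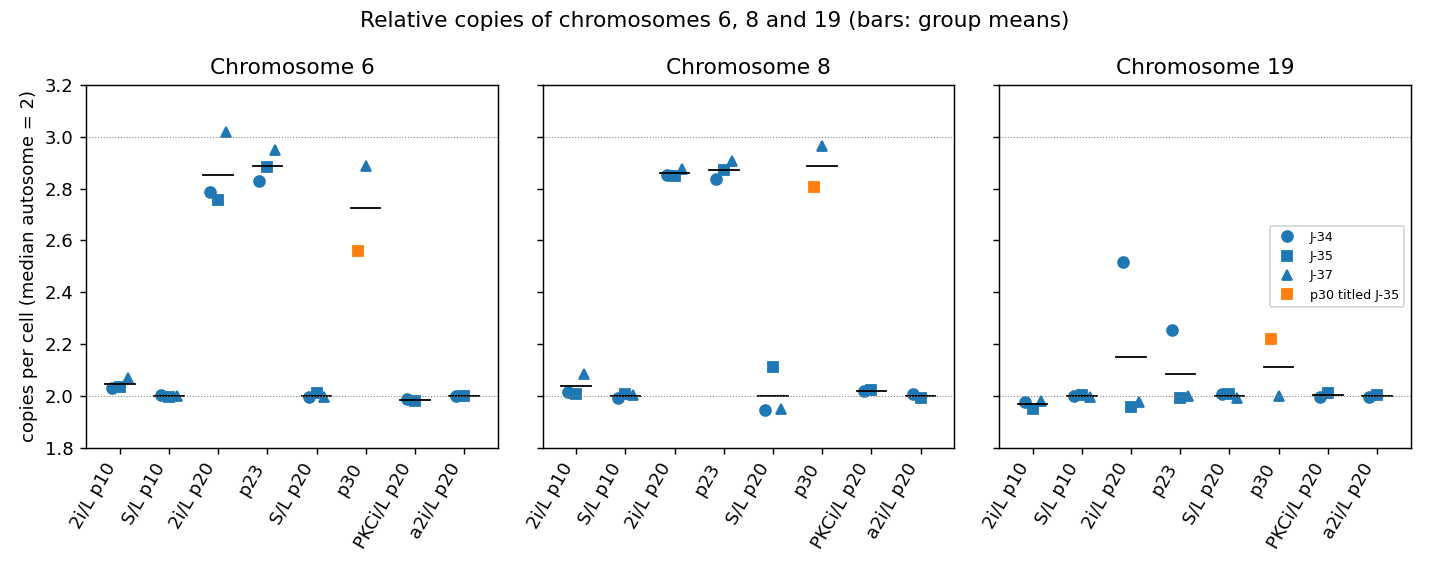
Copies per cell (vertical axis, with the median autosome set to 2) of chromosomes 6, 8 and 19 in the replicated stem cell groups, 1 point per library, shape for the line, orange for the p30 library titled J-35, black bars for group means. On chromosomes 6 and 8 the 2i/L p20, p23 and p30 libraries lie between 2.56 and 3.02 copies, while on chromosome 19 the highest points are J-34 at 2i/L p20 (2.51), p23 of J-34 (2.26) and the p30 library titled J-35 (2.22).

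How the base is set decides which libraries carry the call. Against the set median, 12 of 494 pairs of library and autosome were called, 6 higher (1.21%) and 6 lower (1.21%). The 6 lower ones were chromosomes 6 and 8 in the 3 S/L p20 libraries, because 6 of the 9 libraries of set 2 carried the gain and set the median. Chromosome 8 stood there at -0.48, -0.36 and -0.48 in S/L p20 of J-34, J-35 and J-37, and chromosome 6 at -0.41, -0.40 and -0.41. The 6 higher ones were chromosome 13 in MEK DKO (0.52), chromosome 19 in 2i/L p20 of J-34 (0.26), and chromosomes 6 and 8 in both p30 libraries (0.30 and 0.42 where titled J-35, 0.46 and 0.49 in J-37). Just inside the limit was chromosome 19 in 2i/L p20 of J-34 at 0.26, and just outside were chromosome 8 in PD at 0.16 and in PKCi/L p10 at 0.14. Against the S/L or a2i/L p20 libraries of the set, 18 of 342 pairs (5.26%) were called higher and 0 (0%) lower. Those 18 were chromosomes 6 and 8 in each of the 8 libraries of 2i/L p20, p23 and p30, chromosome 13 in MEK DKO and chromosome 19 in 2i/L p20 of J-34. With the S/L p10 libraries as the base in all sets, chromosomes 6 and 8 gave 2.02 and 2.15 copies in S/L p20 of J-35, the highest of that group for both.

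The spread of libraries around the common profile was summarised by the root mean square of the log2 ratio over the 19 autosomes. Against the set median, 2i/L p20 had a value of 0.041 ± 0.020, and S/L p20 one of 0.148 ± 0.012 (SD, n = 3 each; exact two-sided permutation p = 0.1, the smallest that 3 against 3 can give). The p23 libraries had 0.0297 ± 0.0030, against the same S/L p20 value (SD, n = 3; exact two-sided permutation p = 0.1). Most libraries of their set were 2i/L p20 or p23 and carried the gain, so the set median followed the gained profile. The S/L p20 libraries were far from that median by construction. The direction of these comparisons was thus fixed by the make-up of the set, and they cannot decide which group is more spread. With the S/L p10 libraries as the base the order turned, as 2i/L p20 had 0.171 ± 0.011 and p23 had 0.170 ± 0.006, against 0.0187 ± 0.0094 for S/L p20 (SD, n = 3 each; exact two-sided permutation p = 0.1 for each). At p10 the 2i/L libraries had 0.0172 ± 0.0039, against 0.0158 ± 0.0007 for S/L, both relative to the set median (SD, n = 3 each; exact two-sided permutation p = 0.6). With the S/L p10 libraries as the base, 2i/L p10 had 0.0283 ± 0.0044, against 0.0034 ± 0.0006 for S/L p10 (SD, n = 3 each; exact two-sided permutation p = 0.1), where the S/L p10 libraries are near their own mean by construction.

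Outside the 2i/L p20, p23 and p30 libraries, chromosome 8 was not called higher in any library. The highest values were 2.26 copies in PD, 2.25 in PKCi/L p10, 2.11 in S/L p20 of J-35 (2.15 with S/L p10 as the base) and 2.09 in a2i/L p10, all under the limit of a call. CHIR and MEK DKO stood at 2.01 and 2.00 copies. PKCi/L p20 gave 2.02 copies in both lines, against 2.01 and 1.99 copies in a2i/L p20, whose mean is the base. None of the groups with 1 library has a replicate check. Along chromosome 8, the 13 windows of 10 Mb ran from 0.15 to 0.24 on the log2 scale in PD and from 0.07 to 0.24 in PKCi/L p10. In the 2i/L p20 libraries they ran from 0.46 to 0.59 in J-34, from 0.44 to 0.59 in J-35 and from 0.44 to 0.59 in J-37.

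Chromosome 11, the other autosome often gained by mouse ESCs in culture, was not called in any library or comparison. Its log2 ratio ran from -0.05 in 2i/L p10 of J-35 to 0.02 in PKCi/L p20 of J-35 over the 26 stem cell libraries, which is 1.93 to 2.02 copies. In 2i/L p20 it gave 1.98, 1.95 and 1.96 copies in J-34, J-35 and J-37, against 2.01, 2.00 and 2.00 copies in S/L p20. At p10 its log2 share in 2i/L was below that in S/L by a difference of -0.04 ± 0.01 (SE, limma adjusted p = 7.32e-05). The libraries of these groups did not overlap on chromosome 11, as on every autosome except chromosomes 2, 9 and 14. The autosomes 1, 6, 8, 13 and 19 were left out of a summary of the spread, as they were seen to shift in some library. That summary includes the base libraries, which lie near 0 by construction, so it can understate the spread of the others. The 14 autosomes other than 1, 6, 8, 13 and 19 spread by an SD of 0.018 over 364 pairs of library and autosome, from -0.05 to 0.11.

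The highest of these was chromosome 3 in 2i/L p20. Its log2 ratio was 0.07, 0.08 and 0.11 in 2i/L p20 of J-34, J-35 and J-37, against -0.00002, -0.0022 and 0.0038 in S/L p20. It was 0.0042, 0.00 and 0.0099 in p23. In p23 the log2 share of chromosome 3 was below that in 2i/L p20 by -0.08 ± 0.01 (SE, limma adjusted p = 2.63e-06), under the size asked of a call. Chromosome 3 has the lowest density of counted CpGs, 253.6 per Mb, and chromosome 11 the highest, 620 per Mb. Chromosome 14, at 254.2 per Mb, had a mean log2 ratio of -0.013 in 2i/L p20, against 0.088 for chromosome 3. Across the 19 autosomes, the difference between 2i/L p10 and S/L p10 ran from -0.04 (chromosome 17) to 0.05 (chromosome 3) and fell with CpG density (Pearson r = -0.77, Spearman rho = -0.75), a description over chromosomes of the same 6 libraries. For the difference between p23 and 2i/L p20 the correlation with CpG density was positive (Pearson r = 0.35, Spearman rho = 0.39). The part of CpG density in these small shifts was not tested.

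Chromosome 13 was gained in MEK DKO. It took 5.48% of the reads there and gave 2.97 copies, against 2.00, 2.01 and 2.00 copies in S/L p10 of J-34, J-35 and J-37. On the log2 scale this is 0.57, which is near the value of 1 extra copy in all cells. Of the 13 windows of 10 Mb, the median was 0.57, and the last window, with 207 CpGs, stood at 0.08. That window also varied in other libraries, at 0.27 in PKCi/L p10 and -0.22 in p30 of J-37. In the other 25 stem cell libraries chromosome 13 gave 1.97 to 2.05 copies. MEK DKO has 1 library, of clonal cells, and its parent cells before the deletion have none. The part of the deletion and of the clone in this gain was not tested.

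Chromosome 19 was called higher in 1 library, 2i/L p20 of J-34. It gave 2.51 copies in 2i/L p20 of J-34, against 2.01 copies in S/L p20 of J-34, and 1.96 and 1.97 copies in 2i/L p20 of J-35 and J-37. In p23 of J-34 it gave 2.26 copies, and in p23 of J-35 and J-37 1.99 and 2.00 copies. The p30 library titled J-35 gave 2.22 copies and p30 of J-37 2.00 copies. The values of 2.26 and 2.22 copies were under the limit of a call. If cells carry 2 or 3 copies, 2.51 copies corresponds to 51.5% of cells with an extra chromosome 19. The 7 windows along it ran from 0.31 to 0.38 in 2i/L p20 of J-34.

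Part of chromosome 6 did not share the gain in J-34. Edges were chosen after the profile was seen. Between mm9 positions 63011400 and 77951684 (2641 CpGs), the log2 ratio was -0.04 in 2i/L p20 of J-34, while it was 0.51 on the part before (3071295 to 59983380, 14649 CpGs) and 0.51 on the part after (81034797 to 149514794, 24353 CpGs). The same segment stood at 0.30 in p23 of J-34, between parts at 0.51 and 0.51. In J-35 it stood at 0.48 in 2i/L p20 and 0.53 in p23, and in J-37 at 0.56 and 0.58. In S/L p20 it stood at -0.01, 0.01 and -0.01. In copies, the segment gave 1.94 in 2i/L p20 of J-34 and 2.46 in p23 of J-34, where the rest of the chromosome gave at least 2.84. No mm9 annotation was used, so the genes of the segment are not given.

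**Figure D3:**
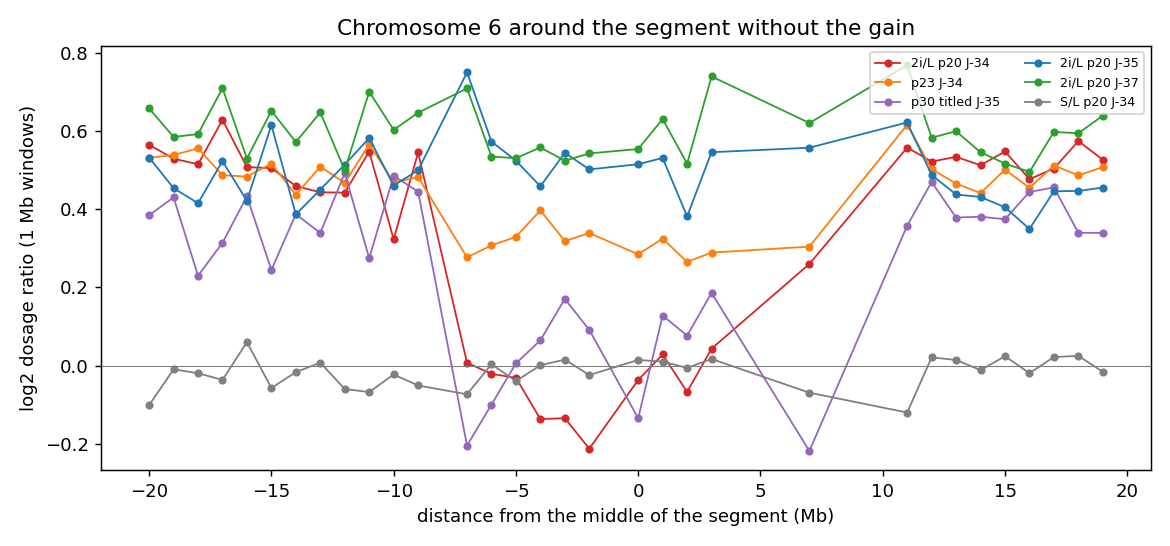
Log2 dosage ratio of 1 Mb windows with at least 50 counted CpGs (points joined by lines) against the distance in Mb from the middle of the chromosome 6 segment, in 6 libraries. The 2i/L p20 library of J-34 and the p30 library titled J-35 lie near 0 inside the segment and above it on both sides, p23 of J-34 lies near 0.30 inside, 2i/L p20 of J-35 and J-37 show no drop, and S/L p20 of J-34 lies near 0 throughout.

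The p30 library titled J-35 was nearer to the J-34 than to the J-35 libraries in both features. Its chromosome 6 segment stood at 0.04, with 0.33 before it and 0.40 after it, and its chromosome 19 at 2.22 copies. The values for p23 were 0.30 and 2.26 copies in J-34 and 0.53 and 1.99 copies in J-35. The labels of this library name both lines, and it was left out of the fits that use the line.

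In PKCi/L p20, both lines gained part of chromosome 1. Between mm9 positions 90068211 and 132994406 (8182 CpGs), the log2 ratio was 0.36 in J-34 and 0.40 in J-35, against -0.01 and 0.01 in a2i/L p20 of the same lines. These are 2.57 and 2.64 copies in PKCi/L p20, against 1.99 and 2.01 copies in a2i/L p20. The a2i/L p20 values lie around 2 by construction, since the mean of these libraries is the base. Over the 24 stem cell libraries other than PKCi/L p20 the segment ran from -0.04 to 0.06, and PKCi/L p10 was the lowest. The lines differed within it. From 90068211 to 118959187 the ratio was 0.31 in J-34 and 0.40 in J-35, and from 119003298 to 132994406 it was 0.47 in J-34 and 0.41 in J-35. From 133015051 to 145930274 it was 0.18 in J-34 and 0.09 in J-35. On the parts outside, it was 0.02 in both lines before the segment and 0.03 in both after 152040434. Because only part of the chromosome moved, chromosome 1 as a whole gave 2.14 and 2.13 copies in PKCi/L p20. With the S/L p10 libraries as the base, it gave 2.17 and 2.16 copies in PKCi/L p20, against 2.02 and 2.02 in a2i/L p20. Against a2i/L p20 its log2 share was 0.09 ± 0.01 higher (SE, limma adjusted p = 2.80e-06), under the size asked of a call, so 0 of 19 autosomes (0%) were called in this comparison by limma, with 3 at an unadjusted p under 0.05. The segment edges were chosen on these libraries and carry no test.

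**Figure D4:**
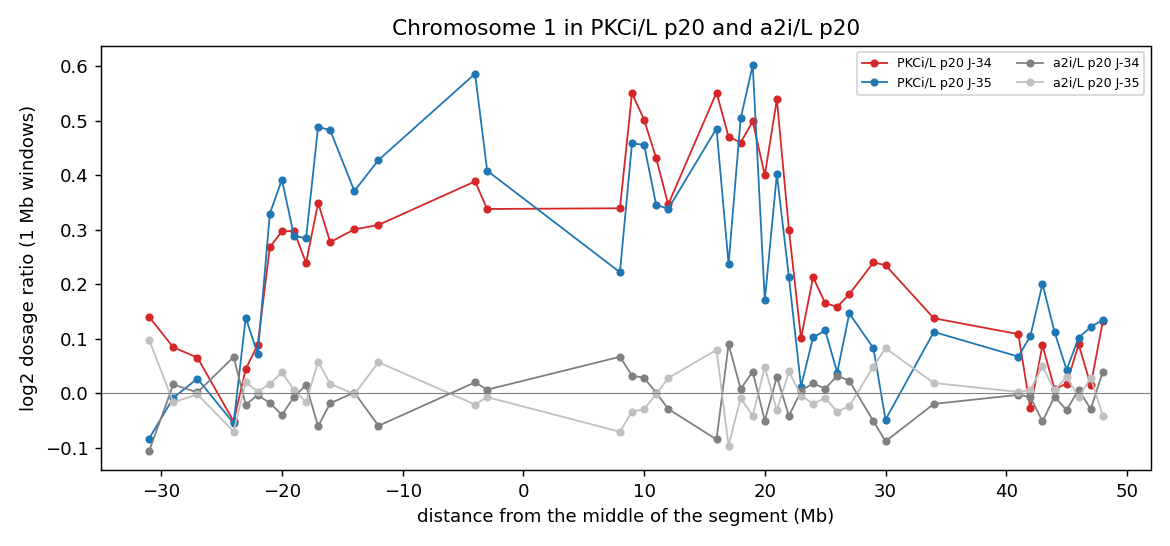
Log2 dosage ratio of 1 Mb windows with at least 50 counted CpGs (points joined by lines) against the distance in Mb from the middle of the chromosome 1 segment, in PKCi/L p20 and a2i/L p20 of J-34 and J-35. Both PKCi/L p20 libraries rise at the same place on the left of the segment and fall on its right. Both a2i/L p20 libraries, whose mean is the base, lie around 0 by construction.

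Over all chromosomes, 256 windows of 10 Mb held at least 200 counted CpGs, and 18 of 6656 pairs of window and library lay 0.2 or more from the median window of their chromosome. Of these 18, 7 belonged to the chromosome 1 segment and 5 to the chromosome 6 segment.

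The X chromosome was read in keratinocytes labelled with different sexes. Its reads were 1.49% of the autosomal reads in the female Wild-type keratinocytes, and 0.866% and 0.857% in the male 2i/L keratinocytes. Taken against the Wild-type library, the 2i/L keratinocytes stood at -0.78 and -0.80 on the log2 scale with the median autosome at 0. A change between 2 copies and 1 copy moves the log2 value by 1 when reads follow copies exactly. The difference of the X share fell to 0.17 when a CpG needed at least 5 reads in every library, which left 658 of 13004 X CpGs, so it gives no firm scale for 1 copy. On the autosomes, chromosome 6 gave 2.01 and 2.02 copies and chromosome 8 gave 1.99 and 2.00 copies in the 2i/L keratinocytes. In MEK DKO, X stood at -0.14 relative to S/L p10, where the 3 libraries, which form the base, lay between -0.03 and 0.03. The shift was uneven along X. Relative to the set median, X in MEK DKO stood at -0.18, with -0.08 before its middle CpG and -0.28 after it.

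Reads over 764 Y chromosome CpGs that had no read in the female library also varied between stem cell libraries. Per 1000000 autosomal reads, MEK DKO had 10.7, and the other libraries of set 1 had 57.1 to 83.5. In J-34, 2i/L p20 had 45.9 and p23 had 44.5, against 74.8 in S/L p20. In J-35, 2i/L p20 had 76.9 and p23 had 71.5, against 82.2 in S/L p20. In J-37, 2i/L p20 had 62.6 and p23 had 56.4, against 78.04 in S/L p20. PKCi/L p20 had 48.9 in J-34 and 26.5 in J-35, against 97.7 and 92.9 in a2i/L p20. The p30 library titled J-35 had 38.2 and p30 of J-37 80.7. Every library labelled male had reads over these CpGs, but the female library had none by the choice of CpGs. Over all Y chromosome CpGs, MEK DKO had 16.6 reads per 1000000 autosomal reads, near the 15.6 of the female Wild-type keratinocytes. The 2i/L keratinocytes had 30.6 and 34.2 on this measure, and S/L p10 had 83.6, 81.7 and 89.1 in J-34, J-35 and J-37.

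**Figure D5:**
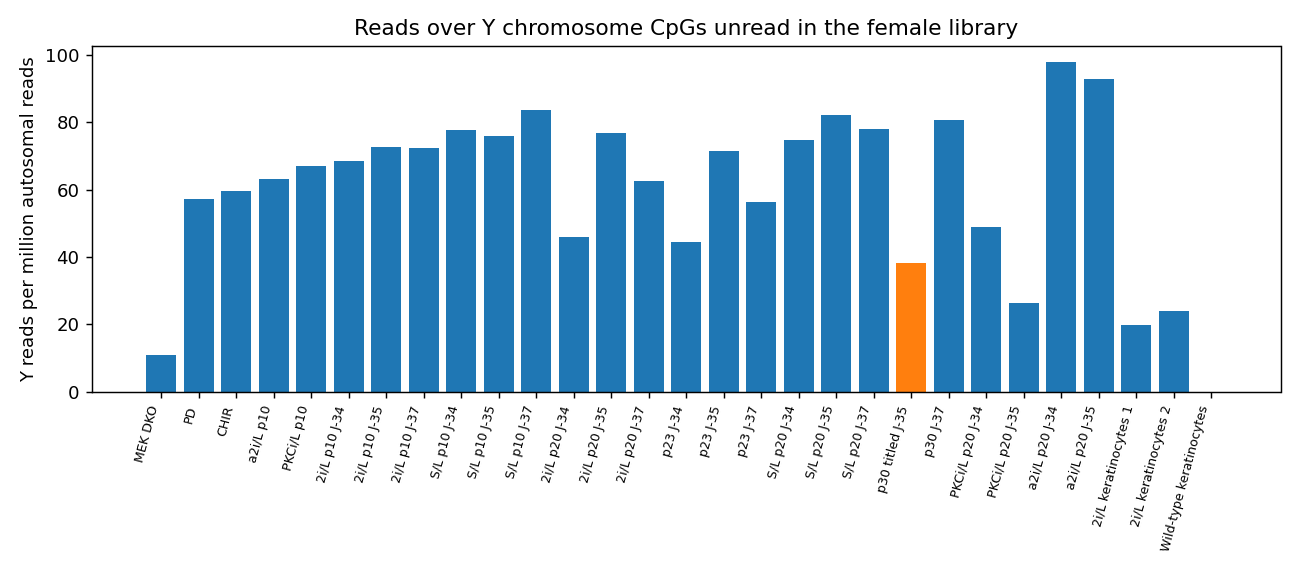
Reads over the 764 Y chromosome CpGs per 1000000 autosomal reads (bars) in each library, with the p30 library titled J-35 in orange. MEK DKO is the lowest stem cell library at 10.7, PKCi/L p20 of J-35 follows at 26.5, and the female Wild-type keratinocytes have 0 by the choice of CpGs.

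Methylation of the gained chromosomes moved with that of the others. Mean CpG methylation of chromosome 8 was 11.3% in 2i/L p20, against 29.8% in S/L p20, a difference of -18.5 percentage points, the lowest of the 19 autosomes, whose median was -17.7. Chromosome 6 had 10.98% in 2i/L p20, against 29.1% in S/L p20, a difference of -18.1 percentage points. In p23 the levels of chromosomes 8 and 6 were above S/L p20 by 1.35 and 0.946 points, where the median autosome was above by 1.29 points.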

How the data were processed

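RRBS was measured in 29 mouse libraries. Per the submitters' processing notes, the authors used BSMAP 2.89 and mm9, with no filters named. The deposited files give per CpG the methylated and all reads as one text field, recorded under another unit than counts, and a score that equals 1000 times the methylated fraction, rounded down. Only all reads (dosage) and both numbers (methylation) were used, so count tools were not run.

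Reads of 893266 autosomal CpGs were summed per chromosome (Python 3.11.15, numpy 2.4.6). Log2 shares of the 21 libraries of 8 replicated stem cell groups were fitted with limma 3.58.1 (R 4.3.3), two-sided, with Benjamini-Hochberg adjustment over 19 autosomes. Calls needed a log2 difference of 0.1 or more besides an adjusted p below 0.05. The scripts were tested on simulated data. Every called pair was named, chromosomes 8 and 11 were given throughout, and a called chromosome was followed in its line.

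The members and tests were chosen with earlier results of these data known. Replicates are 3 cell lines, so the line numbers pair samples: deviations from the group means correlated between p23 and 2i/L p20 of the same line at 0.96, 0.90 and 0.93, and between other groups at -0.21 to 0.21. Reads carry no molecular identifiers, so counting error covers reads only. It is also too low, since a read was counted at each CpG it covered. Alternatives are in the closing section.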

Additional observations from a re-analysis of the deposited data

Results flagged for a closer look

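The 2i/L effect at p20 less that at p10 was called for 2 chromosomes by a test of the difference itself with a size limit of 0.1 on the log2 scale. By adjusted p alone, 18 of 19 autosomes passed, and 6 of 19 after the median autosome was subtracted. For chromosome 6 the difference of effects was 0.41 (effect 0.44 at p20 and 0.04 at p10, limma adjusted p = 9.96e-07, higher in 2i/L in 3 of 3 lines at p20). For chromosome 8 it was 0.42 (effect 0.45 at p20 and 0.03 at p10, limma adjusted p = 2.71e-08, higher in 2i/L in 3 of 3 lines at p20). Passage number and coverage set change together between the 2 effects, and their part was not tested. No group has 4 or more libraries, so single libraries were not checked for standing apart from their group.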

How the results depend on the processing

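Counts of called autosomes stayed within 1.5 times under other read limits, CpG density classes, tile medians and median-autosome centring, and without each library in turn (2 to 3 for 2i/L p20 against S/L p20), with 1 exception: with no maximum, PKCi/L p20 against a2i/L p20 had 1 call. With the cell line as a replicate block (without the p30 library titled J-35) the count equalled the main one in 7 of 7 comparisons. This fit has line effects common to all groups, so it is not a paired test of p23 against 2i/L p20. Without a size limit, limma called 11 (2i/L p10 against S/L p10), 18 (2i/L p20 against S/L p20), 18 (p23 against S/L p20), 7 (p23 against 2i/L p20), 1 (PKCi/L p20 against a2i/L p20), 18 (p30 against a2i/L p20) and 18 (p30 against PKCi/L p20). The number of called pairs of library and autosome was 12, and 10 to 18 under alternatives (10 to 12 without each library).

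The difference in profile deviation between 2i/L p10 and S/L p10, 0.0014, turned to -0.0015 with a minimum of 5 reads, -0.0013 with density classes and -0.0059 with tile medians, and ran from -0.0041 to 0.0054 without each library. It was larger with no maximum, at 0.0129, and against the S/L p10 base, at 0.0249 (exact permutation p = 0.1 for both). Against the S/L p10 base, chosen after seeing the data, those of 2i/L p20 and p23 against S/L p20 turned to 0.15 and 0.15, where the main values were -0.11 and -0.12. The sign of the main values was fixed by the make-up of the set, as most of its libraries carried the gain and set the median. Leaving out each library gave -0.13 to -0.10 and -0.13 to -0.11. Against the S/L mean of the set, chromosomes 6 and 8 in S/L p20 of J-35 turned to 0.0040 and 0.074.

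The X difference between Wild-type and 2i/L keratinocytes was 0.79 to 0.80 without each library, 0.85 with a maximum of 200 reads, 0.82 with none, 0.77 with density classes, 0.82 with tile medians and 0.17 with a minimum of 5 reads, which left 658 X CpGs. The cause was not tested. The chromosome 1 segment in PKCi/L p20 stood at 0.33 and 0.39 in J-34 and J-35 with a minimum of 5 reads. The counting error given for whole chromosomes is far below the size asked of a call, but windows of few CpGs vary more.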
